A study of Mus musculus with 6 samples.

Results

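The genes described here encode the mouse major histocompatibility complex (MHC, H2 in the mouse) and its partners in antigen presentation. They are the genes whose Ensembl identifier maps in GENCODE M21 to a symbol that starts with H2-, together with B2m, Tap1, Tap2, Tapbp, Nlrc5, Ciita, Cd74, Cd40, Cd80 and Cd86. The rule found 55 genes among the 46983 of the count table. Of these, 37 belong to class I (32 heavy chain genes and 5 partners), 12 to class II (10 chain genes and 2 partners) and 3 are costimulatory, while H2-Ke6, which names no MHC chain, and the pseudogenes H2-Pa and H2-Pb, which lie outside the chain names used for the 2 classes, were kept apart. On chromosome 17 of GRCm38 lie 48 of the 55, between 33915899 and 37483552, and the other members are B2m and Cd40 on chromosome 2, Nlrc5 on chromosome 8, Ciita, Cd80 and Cd86 on chromosome 16 and Cd74 on chromosome 18.

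RNA was sequenced from GFP+ cells that were sorted by FACS from mouse embryos at E11.25 and labelled as neural crest cells, in 3 control and 3 BAF155/170-deficient libraries. All embryos carried Wnt1 Cre/+ and the Rosa26 mTmG/+ reporter, in which Cre recombinase switches on membrane GFP. Controls were flox/+ for BAF155 and flox/+ for BAF170, and deficient embryos were flox/flox for both, so that the loss of both copies of each gene was compared with the loss of a single copy. Wnt1 Cre is also active in the dorsal neural tube, so GFP does not mark the neural crest alone. BAF155 and BAF170 are core subunits of the BAF chromatin remodelling complex.

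Gene counts per library ran from 8191219 to 19808620, with every deficient library deeper than every control library. Smarcc1, which encodes BAF155, had 42.0, 54.9 and 35.0 CPM (counts scaled to TMM-normalized library sizes) in controls 1 to 3 and 29.3, 26.3 and 24.4 CPM in deficient libraries 1 to 3. Smarcc2, which encodes BAF170, had 91.6, 89.7 and 92.7 CPM in the controls, followed by 85.7, 82.1 and 86.6 CPM in the deficient libraries. For both genes the deficient values lay below all control values on this scale, as did those of 16.4% of all tested genes. The adjusted p was 0.0676 for Smarcc1 and 0.251 for Smarcc2 (quasi-likelihood test of edgeR, Benjamini-Hochberg adjusted over all genes). Scaling to embryonic marker genes turned the log2 fold changes from −0.71 and −0.11 to 0.32 and 0.86. Both lay below the median of all tested genes on that scale, which was 0.96. Counts per gene also include transcripts that lost only the floxed exons.

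The label of the sorted cells was set against marker genes, because MHC genes are expressed most strongly in immune cells. A list of 16 macrophage markers was detected in full and held between 0.958% and 1.42% of all counts of a library, while 33 markers of crest, mesenchymal and neural cells together held between 0.0125% and 0.0376%. Lyz2, the lysozyme of macrophages, had 22389 to 81422 counts per library, and Sox10, a transcription factor of crest cells, had 14 to 58. None of the 33 embryonic markers was at 0 in every library, and the macrophage markers outweighed them in all 6 libraries, controls included. Markers of T and NK cells were scarce, with a summed level of 3.44 to 3.82 CPM in control and 4.30 to 4.59 CPM in deficient libraries, and 0 to 3 counts of Cd3e. The 8 dendritic cell markers summed to 116 to 134 CPM in the controls and 133 to 139 CPM in the deficient libraries, with overlap. Most of that sum came from Itgax and Ccr7, which dendritic cells share with activated macrophages, with means of 67.6 and 46.0 CPM. Of the others, Flt3 and Cd209a had 3 to 7 and 0 to 3 counts, and Batf3, Xcr1, Clec9a and Zbtb46 had means between 2.88 and 5.42 CPM.

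The macrophage markers and the embryonic markers moved apart between the groups. Summed, the macrophage markers lay between 10478 and 12168 CPM in the controls and between 12279 and 13362 CPM in the deficient libraries, and 2 of the 16 rose at an adjusted p of at most 0.1. The embryonic markers lay between 197.7 and 411 CPM in the controls and between 123 and 178 CPM in the deficient libraries, and 13 of the 31 tested fell at that threshold (quasi-likelihood test of edgeR, Benjamini-Hochberg adjusted over all genes). Of all tested genes, 4.18% were higher and 7.75% lower at that threshold. The 5 endothelial markers summed to 173 to 194 CPM in the controls and 197.7 to 211 CPM in the deficient libraries, nearly all of it Kdr with a mean of 183 CPM, while Tek and Emcn had means of 0.381 and 0.465 CPM. The 7 neutrophil markers summed to 13.7 to 18.9 and 21.3 to 24.0 CPM, chiefly S100a8 and S100a9, with Ly6g at 0 in 5 libraries. For the 9 erythroid markers the sums were 22.0 to 67.1 and 16.8 to 22.7 CPM, with overlap. The 5 B cell markers summed to 2.29 to 5.47 and 1.56 to 2.34 CPM, with overlap. The endothelial, neutrophil and T and NK cell sums were higher in every deficient library than in every control, as were 15.1% of all tested genes taken singly. No gene of the endothelial, neutrophil, erythroid, B cell, T and NK cell or dendritic cell lists reached the 0.1 threshold, and their part in the results below was not tested. In bulk samples, fewer cells of a type and less RNA per cell cannot be told apart, and this holds for every value below.

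MHC class I molecules pair a heavy chain with beta-2-microglobulin and show peptides from the cytosol to CD8+ T cells. The TAP transporter carries these peptides into the endoplasmic reticulum, where tapasin helps to load them. Class II molecules pair an alpha and a beta chain, are guided by the invariant chain Cd74 and show peptides from endosomes to CD4+ T cells, chiefly on macrophages, dendritic cells and B cells. Nlrc5 switches on class I genes and Ciita class II genes, both through a shared promoter module of X and Y boxes. Cd80 and Cd86 give accompanying signals that T cells need, and Cd40 on antigen-presenting cells receives a signal from T cells.

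The promoter module is shown for 2 heavy chain genes, for their common light chain and for a class II chain, because they hold the module and span both classes. Each line gives the 250 bases before the RefSeq start site (GRCm38.p6), 5′ to 3′ on the strand of the gene, and capitals mark the stretch from TGACG, part of an X box, to ATTGG, the Y box. The windows are chr17:34000348-34000597 on the minus strand for H2-K1, chr17:35438905-35439154 on the plus strand for H2-Q7, chr2:122147437-122147686 on the plus strand for B2m and chr17:34287824-34288073 on the minus strand for H2-Aa.
H2-K1: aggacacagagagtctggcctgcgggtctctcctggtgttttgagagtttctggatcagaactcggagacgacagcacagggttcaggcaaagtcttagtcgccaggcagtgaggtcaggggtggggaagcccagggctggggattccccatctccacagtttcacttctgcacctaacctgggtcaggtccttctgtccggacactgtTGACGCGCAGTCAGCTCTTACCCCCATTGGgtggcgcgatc
H2-Q7: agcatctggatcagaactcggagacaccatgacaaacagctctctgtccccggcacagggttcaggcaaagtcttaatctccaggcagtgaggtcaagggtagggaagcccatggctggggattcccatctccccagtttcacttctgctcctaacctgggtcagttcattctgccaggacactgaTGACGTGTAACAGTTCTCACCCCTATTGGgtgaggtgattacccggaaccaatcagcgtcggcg
B2m: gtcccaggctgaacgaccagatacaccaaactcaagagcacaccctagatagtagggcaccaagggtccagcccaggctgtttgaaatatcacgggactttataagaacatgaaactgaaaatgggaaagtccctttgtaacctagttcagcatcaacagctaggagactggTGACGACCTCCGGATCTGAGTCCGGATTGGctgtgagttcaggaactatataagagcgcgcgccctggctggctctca
H2-Aa: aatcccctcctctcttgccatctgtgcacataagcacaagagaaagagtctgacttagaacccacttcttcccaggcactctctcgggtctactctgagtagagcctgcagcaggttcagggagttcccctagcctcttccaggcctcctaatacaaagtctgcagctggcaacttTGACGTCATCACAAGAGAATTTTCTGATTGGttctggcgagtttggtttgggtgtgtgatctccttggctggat

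The spacer between the 2 boxes was 20 bases in H2-K1 and B2m, 19 in H2-Q7 and 21 in H2-Aa. H2-K1 has 2 RefSeq windows, of which the first listed is shown, and there the module ended 11 bases before the start site. The module ended 35, 48 and 43 bases before it in H2-Q7, B2m and H2-Aa. TGACG followed by ATTGG after 8 to 30 bases, sought on both strands, was present in 6 of the 18 members with a mean of at least 2 CPM that have a window, namely H2-D1, H2-K1, H2-Q7, H2-M3, B2m and H2-Aa. It was present in 0 of the 18 members under 2 CPM with a window and in 0.751% of the 27025 genes with a window. CCAAT, which is the Y box read on the other strand and therefore overlaps the module, was in 17 of 18 members of at least 2 CPM and 15 of 18 under it, against 37.5% of all genes. GAAA repeated after 2 bases, a pattern like that bound by interferon regulatory factors, was in H2-T23, H2-T22 and B2m, in 0 of the 18 low members and in 3.46% of all genes. These matches describe letters in a window, not sites at which a factor was measured.

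Class I heavy chain genes were expressed at very different levels. Of the 32 genes, 14 had a mean of at least 2 CPM, 5 had no count in any library, and the classical genes H2-D1 and H2-K1 led. H2-D1 had 5874, 5534 and 6317 CPM in controls 1 to 3 against 6676, 6787 and 7152 CPM in deficient libraries 1 to 3. H2-K1 had 3269, 3097 and 3531 CPM in the controls against 3660, 3835 and 3984 CPM in the deficient group. In both genes every deficient library lay above every control library. The log2 fold change was 0.22 for H2-D1 (standard error 0.08, adjusted p = 0.112) and 0.21 for H2-K1 (standard error 0.08, adjusted p = 0.109), so neither passed the 0.1 threshold of the Benjamini-Hochberg adjusted quasi-likelihood test of edgeR.

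Among the nonclassical heavy chains, H2-T23 was the most abundant. It encodes Qa-1, which shows leader peptides of other class I chains to NK cell receptors. H2-T23 had 1552, 1464 and 1677 CPM in the controls against 1775, 1813 and 1890 CPM in the deficient group. It rose by a log2 fold change of 0.22 (standard error 0.07, edgeR, Benjamini-Hochberg adjusted p = 0.0933). H2-Q7, a Qa-2 gene, had 301, 279 and 321 CPM in the controls against 353, 347 and 364 CPM in the deficient libraries, and rose by 0.24 (standard error 0.06, edgeR, Benjamini-Hochberg adjusted p = 0.0771). H2-M3, which shows formylated peptides, went from 72.7 ± 6.98 CPM (SD, n = 3) in the controls to 86.6 ± 2.76 CPM (SD, n = 3) in the deficient libraries, a log2 fold change of 0.25. H2-T22, H2-Q4, H2-Q6, H2-T24 and H2-M2 also passed the threshold, with log2 fold changes of 0.23, 0.22, 0.23, 0.23 and 0.26. H2-Q4 and H2-Q6 had control means of 382 and 380 CPM, H2-T22 of 399, H2-T24 of 160 and H2-M2 of 29.0 CPM.

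The remaining heavy chain genes above 2 CPM are annotated as pseudogenes and did not pass. H2-Q5, annotated as a polymorphic pseudogene, had 51.1 ± 5.71 CPM in control and 59.4 ± 2.82 CPM in deficient libraries (SD, n = 3 each). H2-T10, another polymorphic pseudogene and a close copy of H2-T22, had 20.2, 20.0 and 21.1 CPM in the controls against 21.3, 22.1 and 21.6 CPM in the deficient group. Its groups were barely separated, and its log2 fold change of 0.084 was the lowest among the 30 tested members. H2-K2 (15.1 ± 0.210 and 16.5 ± 1.29 CPM) and H2-T-ps (3.22 ± 0.797 and 3.44 ± 0.350 CPM, SD, n = 3 each) are also pseudogenes, and their groups overlapped. H2-Q1 entered the test through the deficient libraries, with 6, 4 and 11 counts in the controls and 19, 18 and 30 in the deficient libraries, so it had to be the higher there. Its level was 0.690 ± 0.189 CPM in control and 1.33 ± 0.208 CPM in deficient libraries (SD, n = 3 each). It is left out of the counts of members below.

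Reads of near-identical copies can be split between genes, and how the counting treated reads with several matches is not given in the sources used here. Of the 100-base windows of the transcripts in GENCODE M21, 14.0% of those of H2-Q5, 12.0% of H2-Q7, 10.8% of H2-Q6 and 8.86% of H2-T22 also occur in another gene, chiefly other H2-Q genes and H2-T10. The share was 3.59% for H2-D1 and 0.957% for H2-K1. It was 0 for H2-T24, H2-M3 and H2-M2, which passed the threshold, and for B2m and Tap1.

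Of the 5 class I partners, B2m was the most abundant and only Tap1 passed the test. B2m had 3890, 3736 and 4355 CPM in controls 1 to 3 against 4337, 4562 and 4704 CPM in deficient libraries 1 to 3, and its groups overlapped by the third control (log2 fold change 0.18, standard error 0.08, edgeR, Benjamini-Hochberg adjusted p = 0.166). Tap1, a subunit of the peptide transporter, had 829.6, 798 and 927 CPM in the controls against 962, 984 and 1040 CPM in the deficient group. Tap1 rose by a log2 fold change of 0.23 (standard error 0.07, edgeR, Benjamini-Hochberg adjusted p = 0.0926). The other transporter subunit, Tap2, had 239 ± 17.6 and 275 ± 14.1 CPM, the loading chaperone Tapbp 1015 ± 73.6 and 1170 ± 43.2 CPM, and the class I transactivator Nlrc5 218 ± 17.1 and 249 ± 6.05 CPM in control and deficient libraries (SD, n = 3 each). For these 3 genes the groups did not overlap, and the log2 fold changes of 0.20, 0.21 and 0.19 missed the 0.1 threshold narrowly (adjusted p = 0.102, 0.101 and 0.105 by edgeR, Benjamini-Hochberg).

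Class II chain genes were expressed at lower levels, and the peptide-binding chains H2-Ab1, H2-Aa and H2-Eb1 led. H2-Ab1 had 410, 424 and 455 CPM in the controls against 463, 480 and 492 CPM in the deficient group (log2 fold change 0.15, standard error 0.06). H2-Aa, its partner chain, had 354, 324 and 375 CPM against 382, 402 and 428 CPM (0.20, standard error 0.07). H2-Eb1 had 205, 196 and 243 CPM against 243, 245 and 259 CPM (0.21, standard error 0.08). H2-Ab1 and H2-Aa separated the groups, and H2-Eb1 did not, since control 3 reached the lowest deficient value. None of the 3 passed the test (edgeR, Benjamini-Hochberg adjusted p = 0.138, 0.105 and 0.119). The partner alpha chain of H2-Eb1 is read in the table as H2-Ea-ps, a polymorphic pseudogene, which had 1 count in control 2 and 0 in the other libraries.

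The genes that load class II molecules stood at different heights. Cd74, the invariant chain, had 1388, 1291 and 1459 CPM in controls 1 to 3 against 1504, 1557 and 1642 CPM in deficient libraries 1 to 3, with no overlap (log2 fold change 0.18, standard error 0.07, edgeR, Benjamini-Hochberg adjusted p = 0.122). H2-DMb1 and H2-DMa, which form the peptide editor, had 43.6 ± 2.75 and 32.0 ± 3.23 CPM in control and 49.8 ± 2.47 and 35.7 ± 1.26 CPM in deficient libraries (SD, n = 3 each). H2-DMb1 shares 11.3% of its 100-base windows with H2-DMb2, which had at most 13 counts in a library. H2-Oa and H2-Ob, the chains that restrain the editor and are typical of B cells, had 2 to 10 and 3 to 19 counts. Ciita, the class II transactivator, had 25.8, 25.5 and 26.0 CPM in the controls against 26.2, 29.9 and 31.5 CPM in the deficient group, its first deficient library lying just above the controls (log2 fold change 0.18, standard error 0.09, edgeR, Benjamini-Hochberg adjusted p = 0.213).

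Of the costimulatory genes, Cd40 and Cd86 were abundant and Cd80 was not. Cd40, a receptor through which T cells activate antigen-presenting cells, had 1924, 1879 and 2153 CPM in the controls against 2187, 2251 and 2372 CPM in the deficient group (log2 fold change 0.19, standard error 0.07, edgeR, Benjamini-Hochberg adjusted p = 0.125). Cd86, a ligand of CD28, had 698, 696 and 786 CPM against 805, 828 and 879 CPM (0.20, standard error 0.07, edgeR, Benjamini-Hochberg adjusted p = 0.1004). Both separated the groups. Cd80, the other CD28 ligand, had 13.8, 11.3 and 12.8 CPM against 14.1, 13.5 and 13.6 CPM, and its groups overlapped (0.11, standard error 0.12, edgeR, Benjamini-Hochberg adjusted p = 0.584).

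**Figure D1:**
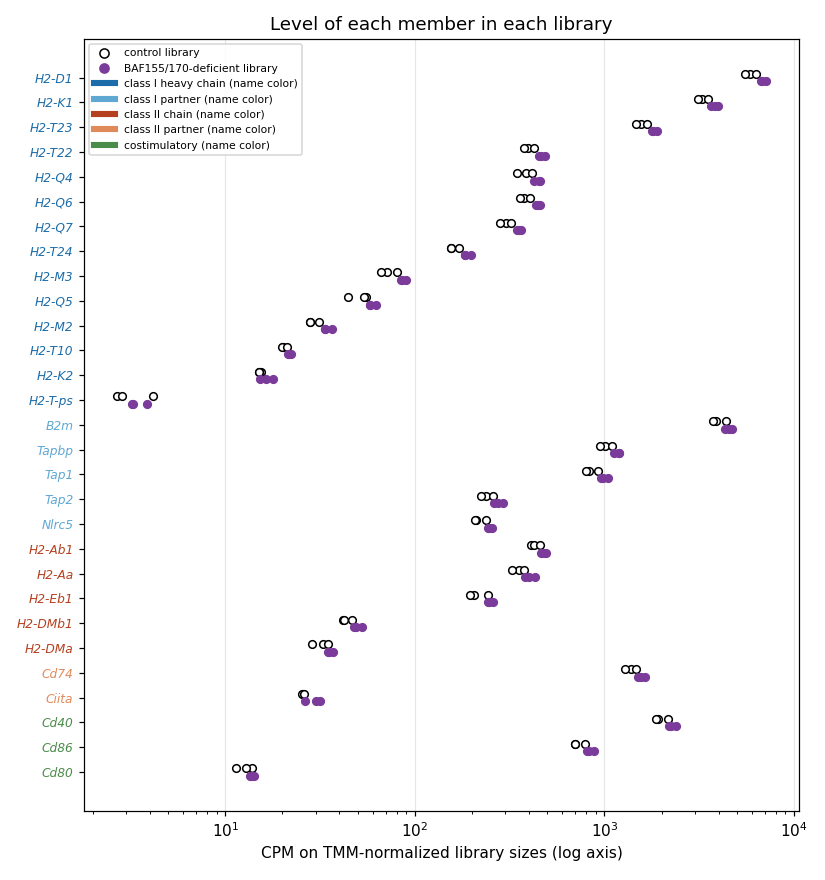
Level of each of the 29 members with a mean of at least 2 CPM in each library, as CPM on TMM-normalized library sizes on a log axis. Open circles are the 3 control libraries, filled circles the 3 BAF155/170-deficient libraries, and the color of a name gives its class. H2-D1 reached 7152 CPM. In 23 of the 29 genes all deficient circles lie to the right of all control circles, as do those of 15.1% of all tested genes.

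Levels of different genes were compared per length, as CPM per kilobase of exon, over all 6 libraries. On this scale B2m stood first with 4958 ± 439 (SD, n = 6), ahead of H2-D1 with 2478 ± 234 and H2-K1 with 1213 ± 114. The level of H2-D1 was between 0.484 and 0.513 times that of B2m in every library. Next came Cd74 with 877.5 ± 74.0, Cd40 with 625 ± 56.1 and H2-T23 with 587 ± 56.4, where the last pair differed by less than 1 SD. Class II chains followed lower, with 177 ± 12.3 for H2-Ab1, 119 ± 12.9 for H2-Eb1 and 99.3 ± 9.52 for H2-Aa. Of the transactivators, Nlrc5 had 27.5 ± 2.39 and Ciita 2.88 ± 0.268, the lowest of the 29 genes. Per kilobase, Cd74 was between 4.66 and 5.17 times as high as H2-Ab1. These orders and ratios depend on the union of annotated exons, which was 3798 bases for H2-Aa, 1944 for H2-Eb1, 2579 for H2-D1 and 860 for B2m. In CPM H2-Aa stood above H2-Eb1, with means of 377 and 232, and H2-D1 above B2m, with means of 6390 and 4264.

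**Figure D2:**
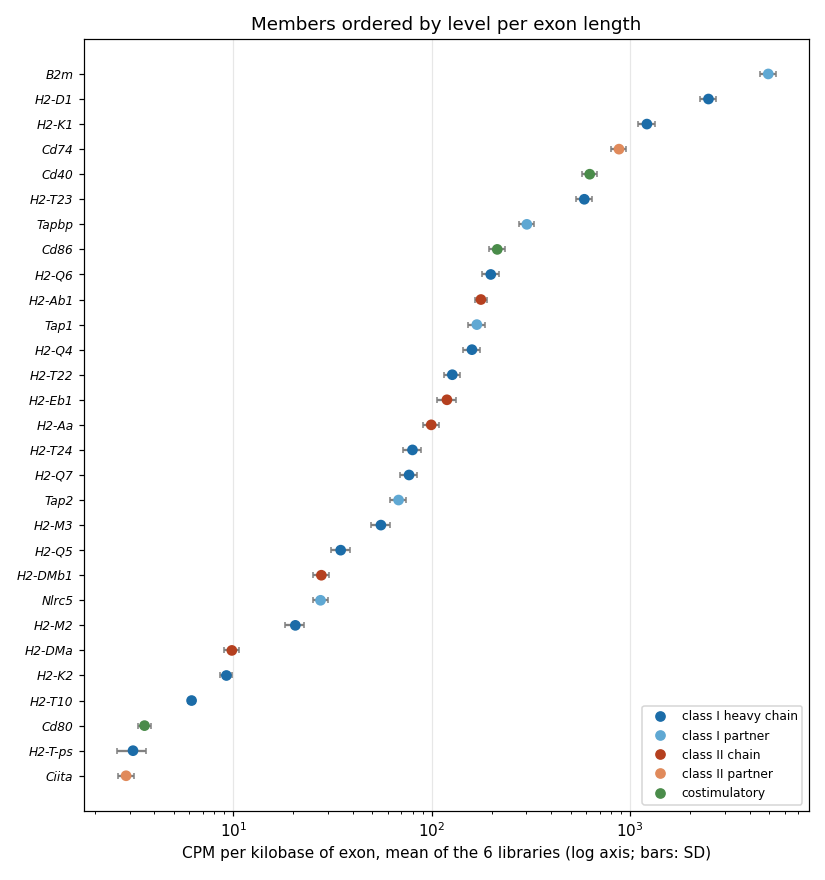
The 29 members with a mean of at least 2 CPM ordered by CPM per kilobase of exon, on a log axis, with the mean of the 6 libraries as a point and the SD as a bar. B2m at 4958, H2-D1 at 2478 and H2-K1 at 1213 stand at the top, class II chains lie between 177 for H2-Ab1 and 9.83 for H2-DMa, and Ciita at 2.88 is at the bottom.

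Set side by side, class I and class II differed in how many members passed the test, while their median differences lay close together. The 29 members with a mean of at least 2 CPM all had a positive log2 fold change. An adjusted p of at most 0.1 was reached by 9 of the 19 such class I members, all higher in the deficient libraries, where 4.18% of the 13961 tested genes were higher and 7.75% lower at that threshold (edgeR, Benjamini-Hochberg). It was reached by 0 of the 7 class II members and 0 of the 3 costimulatory genes. An unadjusted p under 0.05 was found for 5 and 2 of these, and 12.1% of all tested genes were higher at that level. The medians were 0.22 for class I, 0.18 for class II and 0.19 for the costimulatory genes, beside −0.018 for all tested genes. Whether the classes differ was not tested, and a p that misses the threshold does not show that class II values did not differ.

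None of the 29 met the full call rule of the study, which adds a minimum log2 fold change of 0.58 in size and a minimum mean of 2 CPM, in edgeR, DESeq2 or limma-voom, and 23 of them had an unadjusted p under 0.05 in edgeR, where 12.1% of all tested genes were higher. That rule called 4.88% of all tested genes lower and 0.0573% higher. All deficient values lay above all control values in 16 of 19 class I members, 5 of 7 class II members and 2 of 3 costimulatory genes, against 15.1% of all tested genes. For a single gene this separation gives p = 0.1 in an exact two-sided permutation test, which cannot go lower with 3 libraries a group. The 9 of class I depended on most of the libraries. They fell to 0 without control 1, control 2 or deficient library 3, where 0.0% of all tested genes were higher at the threshold, and to 0 without deficient library 2, where 0.789% were. Without control 3 they numbered 15 beside 11.9% of all tested genes. Without deficient library 1, 10 of the 29 members of all classes passed, beside 3.83% of all genes that were higher. DESeq2 gave 14 class I members beside 6.21% of all genes, and library totals in place of TMM gave 0 beside 0.537%.

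The differences of the MHC genes were close to those of the macrophage markers. The 32 heavy chain genes summed to 12587 ± 837 CPM in control and 14651 ± 530 CPM in deficient libraries (SD, n = 3 each), a fold of 1.16. The class II chain genes summed to 1073 ± 73.3 and 1218 ± 49.4 CPM, a fold of 1.14, and the 16 macrophage markers to 11272 ± 849.8 and 12840 ± 543 CPM, also a fold of 1.14. Control 2 was lowest and deficient library 3 highest in all of these sums, and control 2 was highest and deficient library 3 lowest in the sum of the embryonic markers.

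Proportions within libraries varied little. Divided by the macrophage sum, the heavy chain sum ran from 1.11 to 1.15, with 1.12 ± 0.00985 in the controls and 1.14 ± 0.0128 in the deficient libraries (SD, n = 3 each), and the groups did not overlap. The class II chain sum ran from 0.0935 to 0.0971 times the macrophage sum, and its groups overlapped. The ratio of the heavy chain sum to the class II chain sum was 11.97, 11.59 and 11.65 in the controls and 12.10, 12.01 and 11.99 in the deficient libraries, a narrow separation without overlap. Over the 6 libraries these 3 ratios had coefficients of variation of 1.48%, 1.31% and 1.78%, while the ratio of embryonic to macrophage markers had 60.1%.

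**Figure D3:**
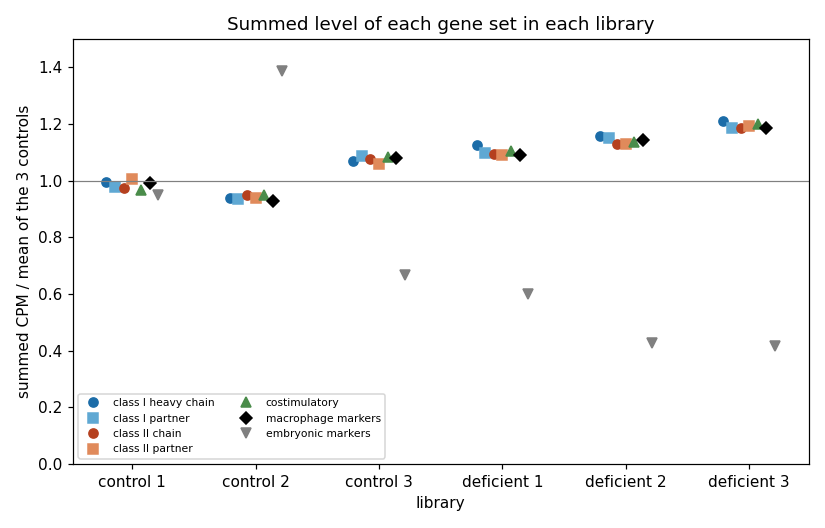
Summed CPM of each gene set in each library, divided by the mean of the 3 controls so that 1.0 is the control mean. The MHC and costimulatory sums and the macrophage markers (black diamonds) move together from library to library, and the embryonic markers (gray triangles) fall from 411 CPM in control 2 to 123 CPM in deficient library 3.

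When each library was scaled so that the median log2 level of the 16 macrophage markers was the same, the differences of the members shrank. The median log2 fold change was then 0.034 for class I, 9.9e-05 for class II and 0.0097 for the costimulatory genes, where the median of all tested genes was −0.20. None of the 29 members of at least 2 CPM reached the 0.1 threshold (edgeR, Benjamini-Hochberg adjusted p = 0.196 for Tap1, the lowest), and 1 had an unadjusted p under 0.05, beside 0.294% of all tested genes that were higher at that level. Of all tested genes, 0.0% were higher and 4.72% lower at that threshold. B2m had a log2 fold change of 6.2e-05 on this scale (standard error 0.01), and its level varied over the 6 libraries by 0.435%, where counting alone gives 0.453%. Other members varied more, H2-D1 by 1.99% against 0.371% from counting, H2-K1 by 1.49% against 0.496% and Cd74 by 1.85% against 0.770%. Of the 29 members, 8 varied by no more than counting alone gives and 21 by more, with a median of 2.47%. H2-D1 stood at 0.034, H2-K1 at 0.030, Cd74 at 9.9e-05 and H2-Ab1 at −0.031. All deficient values lay above all control values in 5 of the 19 class I members, H2-K1, H2-T23, H2-Q6, H2-M3 and Tap1, and in 0 of the 10 class II and costimulatory members, against 1.40% of all tested genes higher and 27.0% lower. Scaling to the embryonic markers gave medians of 1.17, 1.15 and 1.15 for the same classes, with 0.96 for all tested genes. All 29 members then passed the threshold, as did 68.0% of all tested genes in that direction and 0.516% in the other. The full call rule was met by 19 class I, 7 class II and 3 costimulatory members and by 63.7% of all tested genes.

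**Figure D4:**
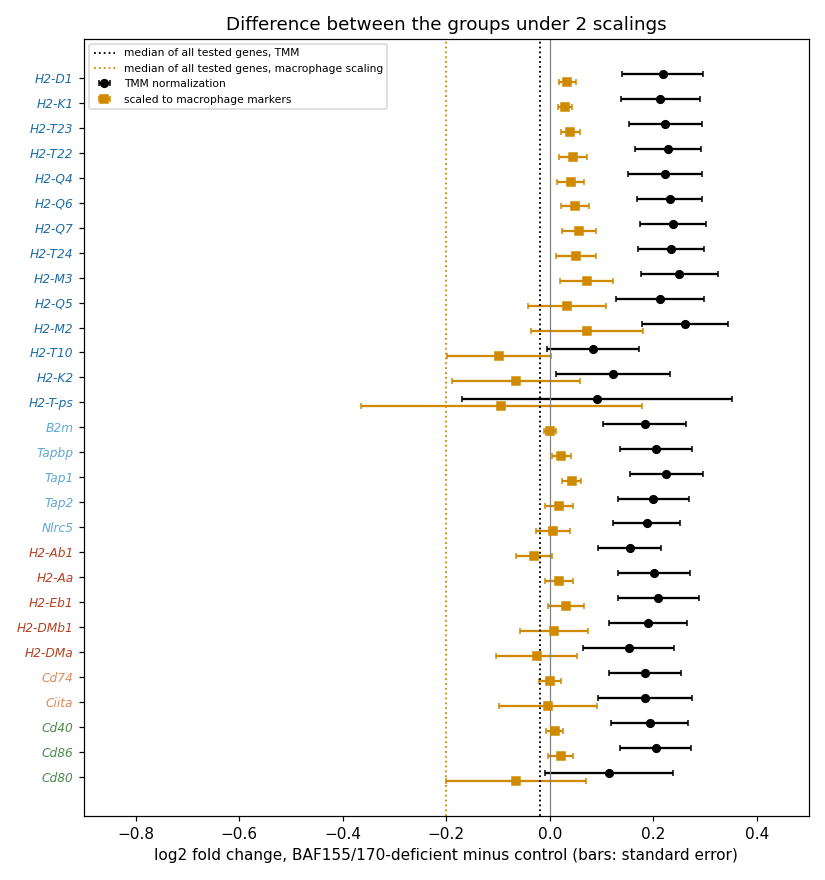
Log2 fold change of the 29 members with a mean of at least 2 CPM, deficient minus control, with bars of 1 standard error. Black circles use TMM normalization and lie between 0.084 and 0.26, and orange squares use libraries scaled to macrophage markers and lie between −0.098 and 0.072. Dotted lines mark the medians of all tested genes, −0.018 and −0.20.

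A wider list of antigen presentation genes was read beside the members. Of its 37 genes, all tested, 30 had a positive log2 fold change and 7 a negative one, with a median of 0.17, and 9 were higher and 1 lower below the same adjusted p of 0.1 (edgeR, Benjamini-Hochberg), beside the 4.18% and 7.75% of all tested genes. The 9 fell to 0 without control 1, control 2 or deficient library 3, beside 0.0% of all tested genes that were higher. They also fell to 0 without deficient library 2, beside 0.789%, and were 24 without control 3, beside 11.9%. Among 10 genes of class I processing, Psmb9, an immunoproteasome subunit, rose from 225 ± 20.8 to 268 ± 13.2 CPM and Erap1, which trims peptides, from 50.3 ± 1.16 to 58.1 ± 2.62 CPM (SD, n = 3 each). Among 6 genes of class II processing, Sppl2a, which cleaves the remnant of Cd74, and March1, which sends class II molecules to degradation, rose by 0.21 each on the log2 scale. Ctss, Lgmn and Ctsl, the endosomal proteases with 3584, 1412 and 1101 CPM in the controls, had log2 fold changes of 0.18, 0.19 and 0.16 and did not pass.

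Of the 10 regulators, 3 passed, 7 had a positive log2 fold change and 3 a negative one. Jak1, Jak2 and Irf1, which carry the interferon response, rose by log2 fold changes of 0.22, 0.20 and 0.21, and Irf8, a factor of macrophages and dendritic cells with 1918 CPM in the controls, stood at 0.21 without passing (edgeR, Benjamini-Hochberg adjusted p = 0.108). The 3 subunits of the RFX factor that binds the X box stood below 0. Rfx5, Rfxap and Rfxank had 12.6, 7.11 and 5.66 CPM in the controls and log2 fold changes of −0.14, −0.20 and −0.14 with overlapping groups, and none passed. With scaling to the macrophage markers these were −0.32, −0.37 and −0.32, where the median of all tested genes was −0.20. The embryonic scaling turned them to 0.83, 0.75 and 0.81, where that median was 0.96. Of the 4 class I-like genes none passed, and Mr1, Cd1d1 and Hfe stood at −0.0041, −0.096 and −0.063, Fcgrt at 0.14. Cd83 and the adhesion molecule Icam1 rose by 0.25 and 0.21, and Cd274, which encodes PD-L1, stood at 0.21 with 1699 CPM in the controls and did not pass. Cd276, a B7 family gene, was the only gene of the list that passed in the lower direction. It had 5.73, 6.94 and 4.26 CPM in controls 1 to 3 against 3.20, 2.99 and 2.89 CPM in deficient libraries 1 to 3. It fell by 0.88 on the log2 scale (standard error 0.24, edgeR, Benjamini-Hochberg adjusted p = 0.0780), which met the full call rule. With scaling to the embryonic markers it stood at 0.16, below the median of 0.96 of all tested genes. Its adjusted p was above 0.1 without control 1, control 2, deficient library 2 or deficient library 3. With scaling to the macrophage markers the list had a median of −0.0085, and Cd276 alone kept an adjusted p of at most 0.1.

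Members that were not tested numbered 25, of which 7 had no count in any library. None of the 25 exceeded 1.73 CPM in a library, the value of H2-Ob in control 2. Among heavy chains these were H2-M5, H2-Q10 and H2-Bl, each with at most 15 counts in a library, and 14 others, most of them of the H2-M group, with at most 3. H2-Ke6, which names a steroid dehydrogenase, had 0 to 6 counts, and H2-Pa and H2-Pb had none. No difference between the groups was tested for these 25. In CPM, H2-M5 was lower in every deficient library (0.0781 to 0.568) than in every control (0.667 to 0.955), from 1 to 12 counts a library. Such a separation in the lower direction was found in 16.4% of all tested genes.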

How the data were processed

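The authors extracted RNA from the sorted cells, made strand-specific poly(A) libraries and sequenced them with paired-end reads. Per the labels and the study's methods, reads were checked with FastQC 0.11.7, trimmed with cutadapt 1.18, aligned to GRCm38 with STAR and assigned to genes with featureCounts. The deposited values are whole-number counts per gene, without normalization. The annotation release, the strand setting and the handling of reads with several matches are not given in the sources used here. Of 46983 identifiers, 46488 have a name in GENCODE M21, matched without their version number, and 495 do not. The methods name 3 control and 3 deficient embryos without tying each library to an embryo, so p-values measure the spread between these libraries, which may be technical in part.

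The fit, over all genes, used edgeR 4.0.16 (R 4.3.3) with the standard filterByExpr limits (minimum count 10, minimum total 15), TMM normalization and a robust quasi-likelihood fit with condition as its only term. The 13961 genes kept gave Benjamini-Hochberg adjusted p-values, with a common biological coefficient of variation of 12.8%. Alternatives were limma-voom (limma 3.58.1, the tool named by the study), DESeq2 1.42.0, library totals, other filters, a correction for a lowess trend on exon length (span 0.3), scaling to 16 macrophage or 22 embryonic markers of at least 2 CPM, a replicate block, and each library left out in turn. The labels name no pairs, and the numbers were not taken as pairs. Deviations of same-numbered libraries from their group means had correlations of 0.0284, −0.0335 and 0.293. These cannot exclude a pairing, since each number holds a single library per group.

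The members, the marker lists and the wider list were chosen with earlier results of these data known. All members of at least 2 CPM are named, the partners and costimulatory genes at any level, and of the wider list the genes with an adjusted p of at most 0.1 and the 5 with the highest mean. H2-Q1 and other members under 2 CPM were named after their values were seen. So were the RFX subunits, the class I-like genes and the markers named. CPM per kilobase used the union of exons in GENCODE M21, and promoter windows came from RefSeq. Tested on simulated counts of 13961 genes, 200 of them moved by 1 on the log2 scale, the pipeline called 158 in the right direction with 12 false calls. These calls used the full call rule. Recovery was not measured for differences as small as the 0.084 to 0.26 of the 29 members. Summaries used Python 3.11.15 with pandas 2.3.3, permutation tests scipy 1.17.1 and figures matplotlib 3.10.9.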

Additional observations from a re-analysis of the deposited data

How the results depend on the processing

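No member of at least 2 CPM was called under any alternative other than scaling to the embryonic markers, which called 19 class I, 7 class II and 3 costimulatory members higher. The other values below are counts of class I, class II, costimulatory and wider-list genes that were higher at an adjusted p of at most 0.1 (9, 0, 0 and 9 in the report). They were 14, 4, 2 and 16 with DESeq2, 15, 3, 2 and 20 with no filter on low counts, and 20 (H2-Q1 included), 7, 3 and 36 with scaling to the embryonic markers, where 0 genes of the wider list were lower. Of all tested genes, 6.21% were higher with DESeq2, 4.21% without a filter and 68.0% with the embryonic scaling. With limma-voom 12 class I, 1 class II, 2 costimulatory and 12 wider-list genes passed, beside 4.52% of all genes. With library totals, and with scaling to the macrophage markers, 0 class I and 0 wider-list genes passed, beside 0.537% and 0.0% of all tested genes. With a filter of at least 2 CPM in 3 libraries 4 class I and 2 wider-list genes passed (1.84% of all genes), and with the length-trend correction 4 class I and 1 class II gene passed (6.39%). Leaving out 1 library gave 0 to 15 for class I, 0 to 5 for class II, 0 to 2 for costimulatory genes and 0 to 24 for the wider list. Of all tested genes, 0.0% to 11.9% were higher in these fits, and 0 to 1 gene of the wider list was lower.

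With the replicate block the counts were 16, 5, 2 and 23, beside 11.5% of all genes. Whether the numbers pair the libraries is not known, and the cause of the larger counts was not tested.

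The median log2 fold changes of all 20 tested class I, the class II, costimulatory and wider-list genes were 0.037, 9.9e-05, 0.0097 and −0.0085 with scaling to the macrophage markers and 1.17, 1.15, 1.15 and 1.13 with scaling to the embryonic markers. They moved by less than the spread between replicates under the remaining alternatives. Macrophage scaling turned the sign of H2-T10 (−0.098), H2-K2 (−0.065), H2-T-ps (−0.093), H2-Ab1 (−0.031), H2-DMa (−0.025), Ciita (−0.0035) and Cd80 (−0.065), none past the threshold on either scale, and leaving out 1 library gave H2-T-ps a range from −0.012, without control replicate 2, to 0.31. The counts limit what can be said of the 26 members under 2 CPM.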
